A study of Mus musculus with 3008 samples.

Results

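The genes that encode the proteins of the cytosolic ribosome were read one by one in single regulatory T cells (Tregs) of the mouse spleen and colon. Members were taken by name: 93 of the 23725 genes of the count table carry a ribosomal protein symbol (Rpl or Rps and a number, Rplp0 to Rplp2, or Rpsa, without the Rps6k kinases), and 89 of these held at least 30 unique molecular identifiers (UMIs, tags that mark 1 captured transcript each) over all cells. Of the 89, 77 are structural ribosomal protein genes, 46 of the large and 31 of the small subunit, and 12 are look-alikes by name, meaning paralogs, pseudogenes or a binding partner. The other 4 names, Rpl14-ps1, Rpl37rt, Rpl3l and Rplp2-ps1, had 0 UMIs in every library.

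Tregs are CD4+ T cells that hold immune responses in check, and Foxp3 is their defining transcription factor. All cells came from male B6 Foxp3-Ires-Gfp mice aged 7 months, whose green fluorescent protein reporter marks Foxp3-expressing cells, and were sorted as live DAPI- TCRb+ CD4+ GFP+ cells. The spleen group was 1 library from mechanically dissociated spleen. The colon group was 2 libraries, here colon 1 and colon 2, from the lamina propria (the layer of connective tissue below the gut lining) after digestion with collagenase and dispase. The table holds 3008 cells, of which spleen gave 20.5%, colon 1 20.6% and colon 2 58.9%. Tissue and dissociation cannot be told apart in this design. Animals are not named in the labels, and colon 2 is a second replicate by its title but part of the first by its sample type. Each tissue was therefore counted as 1 sample with no test, and the 95% intervals below cover counting error only.

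The libraries held 1255946, 1253246 and 3916649 UMIs in spleen, colon 1 and colon 2, with a median of 1847, 1767 and 2026.5 UMIs per cell. Per the labels, the median cell was read at 58.7, 61.6 and 26.7 reads per UMI, so colon 2 was read less deeply. Treg markers fitted the sort: Foxp3 stood at 281.9, 452.4 and 306.1 CPM (counts of a gene for every 1000000 UMIs counted in that library). The markers of granulocytes or mast cells were at 0 in every library (4 of 4), and the summed level of the other lists for foreign cell types lay between 0 and 66.1 CPM. Cell barcodes shared between libraries numbered 5 for spleen and colon 1, 11 for spleen and colon 2, and 9 for both colon libraries.

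A ribosome joins a small subunit, which reads the messenger RNA, to a large subunit, which forms the peptide bond, and each subunit carries 1 copy of nearly all of its proteins. The matching messenger RNAs are among the most abundant of a cell. Most of them begin with a C followed by a run of pyrimidines, the 5′ terminal oligopyrimidine (TOP) motif, through which mTOR signalling and Larp1 control their translation and stability.

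The annotated transcription start sites of some members show this motif. The RefSeq start table (GRCm38.p6, the assembly behind mm10) matched 57 of the 77 structural genes, and 13 of the 57 (22.8%) had a C at the annotated start followed by 4 bases that are each C or T, against 3.01% of the 27025 genes of that start table. Below are 6 of the 13, chosen to span the ratios described later, as 30 bases on the gene's own strand, 10 before the start and 20 from it, with the pyrimidine run in capitals. The windows lie at chr2:39005112-39005141 (minus strand), chr4:86857348-86857377 (minus), chr3:90213629-90213658 (minus), chr7:141447641-141447670 (plus), chr9:120571507-120571536 (plus) and chr11:114668570-114668599 (plus), in the order of the lines.
Rpl35: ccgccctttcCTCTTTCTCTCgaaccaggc
Rps6: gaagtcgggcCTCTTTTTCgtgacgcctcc
Rps27: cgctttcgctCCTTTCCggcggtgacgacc
Rplp2: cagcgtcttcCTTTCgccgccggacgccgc
Rpl14: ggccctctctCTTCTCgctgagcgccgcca
Rpl38: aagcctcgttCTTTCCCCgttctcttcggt
The run begins at the annotated start in each and is 5 to 11 bases long in these 6.

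The genes at the ends of the ranking given below had other letters at their annotated starts. The same windows follow for Rpl41 and Rpl7a, which were lowered least, and for Rps28, Rpl37 and Rpl26, which stand at or near the low end in at least 1 colon library, with the longest run of a C and 4 or more pyrimidines in capitals where the window holds one. They lie at chr10:128549149-128549178 (minus strand), chr2:26910797-26910826 (plus), chr17:33824543-33824572 (minus), chr15:5116603-5116632 (plus) and chr11:68901556-68901585 (plus).
Rpl41: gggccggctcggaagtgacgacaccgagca
Rpl7a: CTCTTCTTTCTTTCTCCagcagccgagcaa
Rps28: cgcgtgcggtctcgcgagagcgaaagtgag
Rpl37: cctgggcggaagcttatccacaggaagtgg
Rpl26: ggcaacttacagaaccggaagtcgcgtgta
An annotated start is 1 position, while transcription of a gene can begin at several, so a window without the run says only that these letters are not in it. When the run was allowed to begin up to 10 bases on either side of the start, 34 of 57 members (59.6%) and 34.4% of all genes held it.

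Ribosomal protein transcripts made up a smaller part of colon than of spleen Treg transcripts, and each structural gene moved the same way. The 77 structural genes took 27.6% of spleen UMIs (27.5 to 27.7), 17.1% (17.04 to 17.17) in colon 1 and 15.9% in colon 2, whose interval is narrower (exact Clopper-Pearson intervals), which is 1.61 and 1.74 times lower than in spleen. The summed log2 ratio to spleen was -0.69 (-0.70 to -0.68) for colon 1 and, with a similarly narrow interval, -0.80 for colon 2. All 77 structural genes stood below their spleen level in both colon libraries, where 38.8% of the 9580 genes with at least 30 UMIs did. At least 1.5-fold lower in both colon libraries were 50 of the 77 structural genes and 55 of the 89 members, against 13.3% of all genes. At least 1.5-fold higher in both was 0 of 89, against 17.4% of all genes; colon 1 alone had 2, Rpl36al and Rps27l, and colon 2 alone 1, Rps4l, all look-alikes. A threshold of 2-fold left 3 structural genes on the lower side, among them Rps20 (5.40% of all genes).

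Shares are bound to a whole, so a lower ribosomal share raises the shares of other genes. With totals that leave the members out, the median log2 ratio of all genes moved from -0.01 and 0.00 to -0.22 in both colon libraries. The split of genes past 1.5-fold then went from 1278 lower and 1664 higher to 1998 lower and 1248 higher. The members at least 1.5-fold lower were then 78 of 89 (20.9% of all genes). All 77 structural genes again stood below spleen, as they did under each of the 5 scalings computed.

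**Figure D1:**
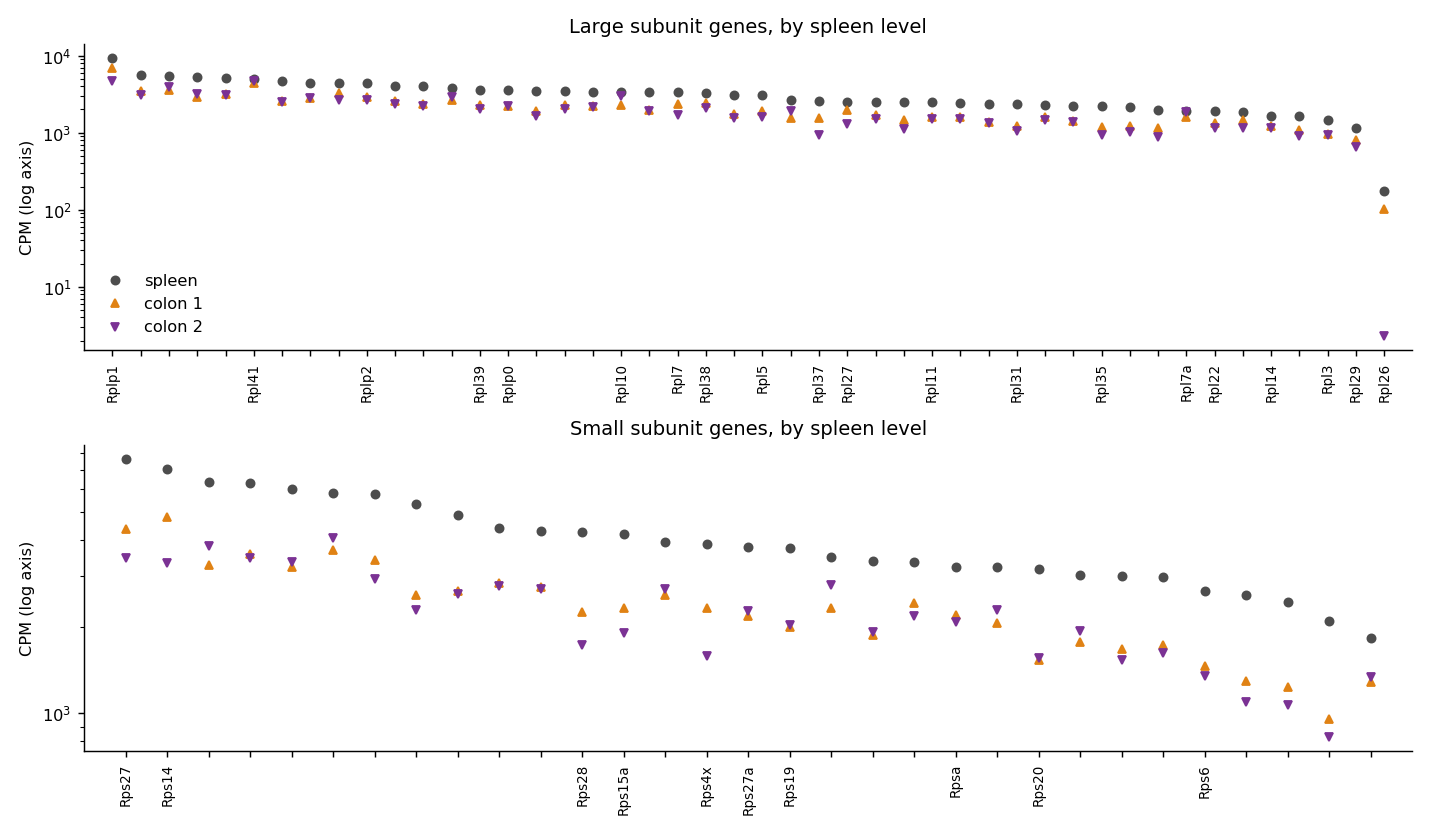
Level of each of the 77 structural genes in CPM (log axis) in spleen (circles), colon 1 (upward triangles) and colon 2 (downward triangles), large subunit above and small subunit below, ordered by spleen level, with the names of genes described in the text. The spleen point is the highest of the 3 for each gene; Rpl26 stands far below the other genes, at 175.96, 101.3 and 2.30.

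The genes kept nearly the same order of abundance in the 3 libraries. Across the 77 genes, which share the libraries and are not independent replicates, Spearman's rank correlation of levels was 0.95 for spleen and colon 1, 0.92 for spleen and colon 2 and 0.95 for both colon libraries. UMIs count transcripts from their tails, so levels were not divided by gene length. Capture and mapping still differ between genes, and levels of different genes are therefore compared only roughly.

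Rplp1, which encodes an acidic protein of the ribosomal stalk (chromosome 9, 61913284 to 61914542, minus strand, mm10), had the highest mean level, with 9353, 6984 and 4708 CPM in spleen, colon 1 and colon 2. Rps27, a small subunit gene (chromosome 3, 90212522 to 90213651, minus strand), followed with 7632, 4387 and 3456 CPM. Rps14, whose protein lies on the platform of the small subunit, stood at 7055, 4808 and 3329 CPM. Each of the 3 was highest in spleen and lowest in colon 2.

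At the low end, Rpl3, the gene of a protein that reaches close to the peptidyl transferase centre, stood at 1444, 950 and 929 CPM. Rpl29 stood at 1157.7, 794.7 and 648.8 CPM. Rpl26 had 175.96, 101.3 and 2.30 CPM, so that 76 of the 77 genes lay between 1157.7 and 9353 CPM in spleen and 1 lay well below them.

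The difference from spleen had the same direction in all 77 genes, while its size varied between them. Log2 ratios ran from -1.13 to -0.17 in colon 1 and, without Rpl26, from -1.46 to -0.04 in colon 2. Over the 77 genes the median log2 ratio was -0.68 in colon 1, with an SD over genes of 0.19 and the middle of the distribution between -0.84 and -0.58 (quartiles). In colon 2 the median was -0.80 and the quartiles -0.99 and -0.66. The SD in colon 2 was 0.68, and 0.28 without Rpl26, the only structural gene under 1000 UMIs. Counting error alone gives an SD of 0.04 in colon 1 and, without Rpl26, 0.03 in colon 2, so most of the spread over genes is larger than counting error. Among other genes with at least 300 UMIs, the SD was 0.98 in colon 1 and 1.04 in colon 2, where counting error gives 0.22 and 0.19. With at least 5000 UMIs it was 1.46 and 1.53. Both minimums count UMIs over all cells, most of them from colon, so genes high in colon enter more easily. Genes of the 5000 UMI set had median log2 ratios of 0.50 and 0.64, so their SD is no measure of how uniform the structural genes are.

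No gene left the group by 1.5-fold in both colon libraries: 0 of 77 structural genes differed from the summed ratio by that much in the same direction, where 58.6% of the 3370 genes with at least 300 UMIs did. At 1.3-fold, a threshold added after the data were seen, 3 genes did, among them Rpl41 and Rpl7a (71.7% of genes). The summed ratio comes from these same 77 genes, while other genes with at least 300 UMIs had median log2 ratios of 0.13 and 0.18. The shares of 58.6% and 71.7% reflect that distance and do not measure uniformity. In colon 2 alone 5 genes differed from its summed ratio by 1.5-fold, namely Rpl10, Rpl7a and Rpl41 above it and Rpl37 and Rpl26 below it. In colon 1 alone none did.

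**Figure D2:**
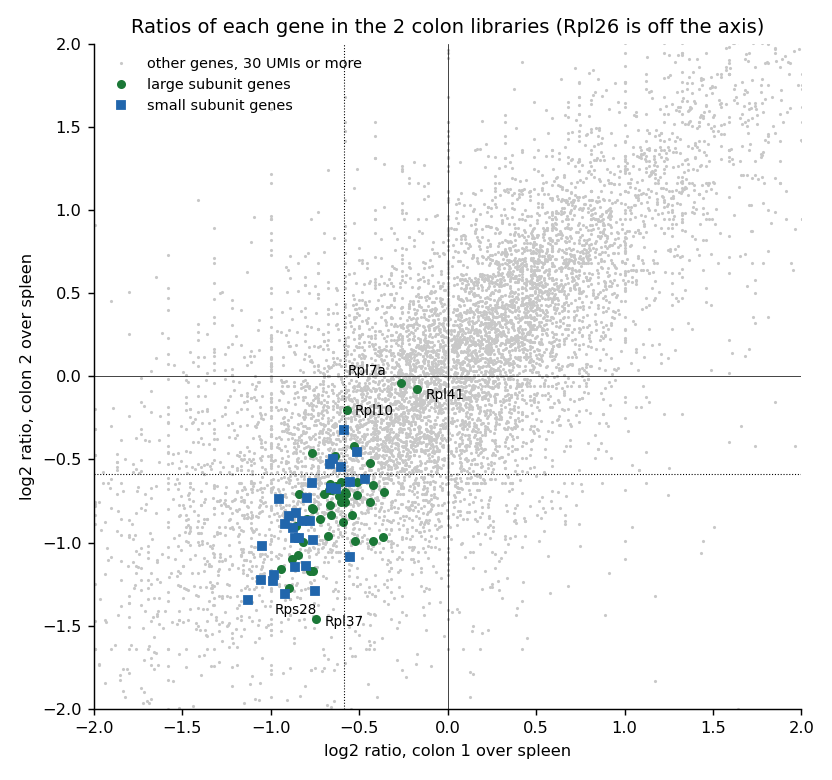
Log2 ratio of each gene in colon 1 (x axis) and colon 2 (y axis) over the same spleen library, for large subunit genes (circles), small subunit genes (squares) and 8591 of 9491 other genes (grey), the rest lying beyond the axes or at 0 UMIs; dotted lines mark 1.5-fold lower. The ribosomal protein genes form 1 compact group below 0 on both axes, with Rpl41 and Rpl7a nearest to 0 and Rps28 and Rpl37 among those at the low end; Rpl26 lies off the axis at -6.26 in colon 2.

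Rpl41, Rpl7a and Rpl10 were the 3 genes lowered least by mean ratio. Rpl41 encodes the shortest protein of the ribosome (chromosome 10, 128548114 to 128549305, minus strand) from a coding sequence of 78 bases. It stood at 4952, 4391 and 4701 CPM in spleen, colon 1 and colon 2, with log2 ratios of -0.17 (-0.23 to -0.12) and -0.08 (-0.12 to -0.03). It made up 1.79% of the structural UMIs in spleen and 2.57% and 2.96% in colon.

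Rpl7a (chromosome 2, 26910764 to 26913318, plus strand), a large subunit gene whose introns host small nucleolar RNAs, stood at 1906, 1587 and 1856 CPM. Its log2 ratio in colon 1 was -0.26 (-0.35 to -0.18). That in colon 2 was -0.04 (-0.11 to 0.03), with an interval on both sides of 0. Rpl10 (chromosome X, 74270812 to 74273135, plus strand), whose protein joins the large subunit late in its assembly, stood at 3403, 2294 and 2955 CPM. Rpl10 was lower in colon 1 than in colon 2, with a log2 ratio of colon 2 to colon 1 of 0.37.

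Among the 4 genes lowered most by mean ratio were Rpl26 and Rps28. Rps28 (chromosome 17, 33819027 to 33824562, minus strand), a protein of the small subunit head, stood at 4264, 2257 and 1723 CPM, 1.89 and 2.47 times lower in colon 1 and colon 2. Both colon libraries lay below spleen for Rps28, and colon 2 below colon 1.

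**Figure D3:**
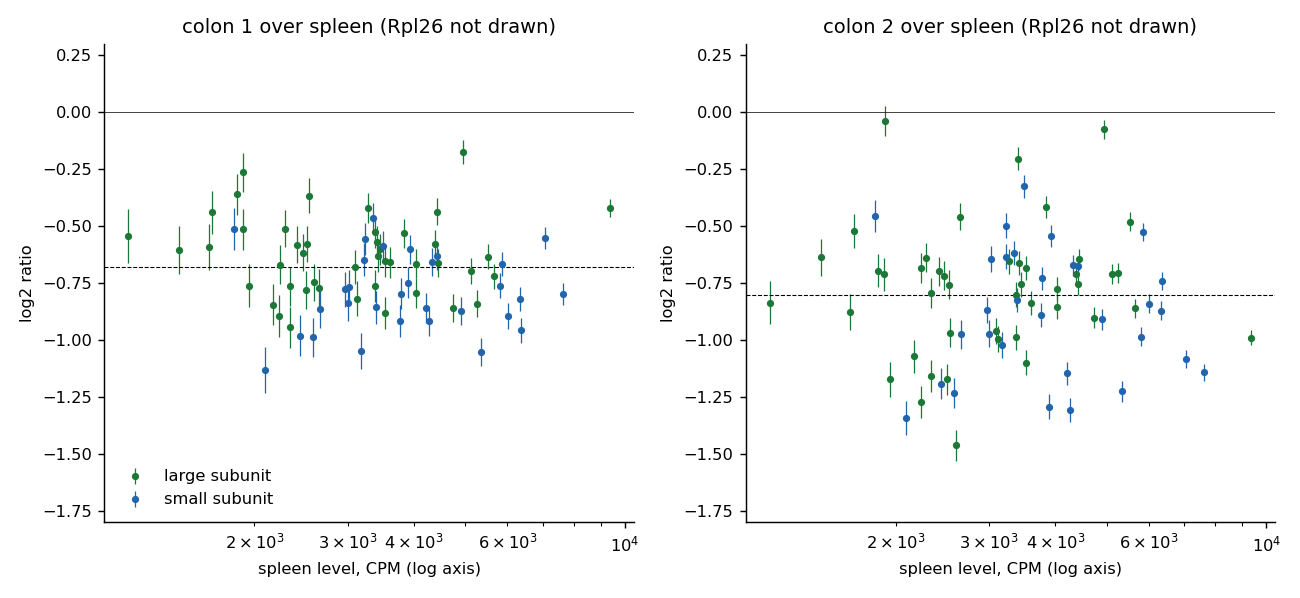
Log2 ratio over spleen (y axis) against the spleen level in CPM (x axis, log) for 76 structural genes, in colon 1 (left) and colon 2 (right); bars are 95% counting intervals, the dashed line is the median of the 77 genes and the solid line is 0. Ratios lie within about the same band at low and high levels, more widely in colon 2 (SD 0.28) than in colon 1 (SD 0.19).

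Small subunit genes stood a little further below spleen than large subunit genes in both colon libraries. The 46 large subunit genes took 14.8%, 9.64% and 8.85% of the UMIs of spleen, colon 1 and colon 2, and the 31 small subunit genes 12.8%, 7.47% and 7.05%. The summed log2 ratio was -0.62 (-0.63 to -0.61) and -0.74 (-0.75 to -0.73) for the large subunit. It was -0.78 (-0.79 to -0.77) and -0.86 (-0.87 to -0.85) for the small subunit. Medians over genes were -0.64 and -0.76 against -0.80 and -0.87, so the large subunit stood higher by 0.15 in colon 1 and 0.11 in colon 2. The ranges of the subunits overlapped, from -0.94 to -0.17 for the large and from -1.13 to -0.47 for the small subunit in colon 1. Small subunit genes held 46.4% of the structural UMIs in spleen, 43.7% in colon 1 and 44.4% in colon 2. At least 1.5-fold lower in both were 27 of 46 large (58.7%) and 23 of 31 small subunit genes (74.2%), against 13.3% of all genes.

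The 3 genes of the large subunit stalk, which recruits the elongation factors, stood below spleen in both colon libraries. Rplp0, the base of the stalk (chromosome 5, 115559467 to 115563727, plus strand), stood at 3528, 2241 and 2194 CPM and was 1.57 and 1.61 times lower. Rplp2 stood at 4374, 2933 and 2675 CPM, 1.49 and 1.64 times lower, and Rplp1 was 1.34 and 1.99 times lower. Another gene of the table, Wdr89, holds a near-identical copy of the coding end of Rplp2, at 1842, 1129 and 905.4 CPM, and reads of the copies cannot be told apart where they match. Summed with Wdr89, a choice added after the data were seen, Rplp2 was 1.53 and 1.74 times lower, past 1.5-fold in both, where by itself it was just short of it in colon 1. The colon libraries differed most for Rplp1, with a log2 ratio of colon 2 to colon 1 of -0.57 (-0.61 to -0.53).

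Rpl5 and Rpl11 bind the 5S ribosomal RNA and, outside the ribosome, the p53 regulator Mdm2, and both were past 1.5-fold. Rpl5 (chromosome 5, 107900502 to 107909005, plus strand) stood at 3096, 1933 and 1589 CPM. Rpl11 (chromosome 4, 136028265 to 136053428, minus strand) stood at 2467, 1609 and 1500 CPM. The log2 ratios of Rpl5 were -0.68 and -0.96 and those of Rpl11 -0.62 and -0.72.

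Of 9 genes whose proteins line the rim of the exit tunnel, where the new peptide leaves, 6 were past 1.5-fold, near the share among all structural genes (64.9%, and 13.3% of all genes). Rpl38, whose loss in mice is known for skeletal patterning defects (chromosome 11, 114668524 to 114672331, plus strand), was among the 3 that were not past it, at 3276, 2448 and 2082 CPM. Rpl39 stood at 3604, 2284 and 2018.6 CPM. Rpl22, the ribosomal protein whose loss is known to block development of alpha-beta T cells, stood at 1905, 1334 and 1162 CPM and was short of 1.5-fold in colon 1, with log2 ratios of -0.51 and -0.71. Rpl26, another rim gene, is described with the differences between the colon libraries.

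In the head of the small subunit, 11 of 14 genes were past 1.5-fold, near the share among all small subunit genes (74.2%, and 13.3% of all genes). At 2-fold there were 2 of 14, Rps20 included (5.40% of all genes). Rps20 stood at 3174, 1534 and 1563 CPM in spleen, colon 1 and colon 2, 2.07 and 2.03 times lower. Rps19 (chromosome 7, 24884371 to 24889806, plus strand), the gene most often mutated in the human Diamond-Blackfan anaemia, stood at 3759, 1989 and 2029.8 CPM. Rps27a, which is made as a fusion with ubiquitin, stood at 3776, 2174 and 2277 CPM.

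Among other small subunit genes, Rps6, whose protein is phosphorylated by the S6 kinases below mTOR (chromosome 4, 86854660 to 86857412, minus strand), stood at 2654, 1456 and 1350 CPM. Its log2 ratios were -0.87 (-0.95 to -0.78) and -0.97 (-1.04 to -0.91). Rps4x, an X-linked gene (chromosome X, 102184941 to 102189394, minus strand), stood at 3892, 2317 and 1588 CPM. Rpsa, which is also known as a laminin receptor (chromosome 9, 120127689 to 120132369, plus strand), stood at 3228, 2197 and 2079.8 CPM and missed 1.5-fold in colon 1, at -0.55. Rpl7, on the large subunit, stood at 3377, 2344 and 1702.2 CPM.

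Genes with the TOP letters at the annotated start had somewhat lower ratios. The 13 with them had medians of -0.84 and -0.97 in colon 1 and colon 2, and the 44 others in the start table -0.67 and -0.76. The ranges overlapped: in colon 1 the 13 ran from -0.90 (Rpl35) to -0.42 (Rpl38) and the 44 from -0.99 to -0.17. With the run allowed within 10 bases of the start, the medians were -0.73 and -0.84 with it against -0.67 and -0.75 without it.

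Ratios in colon 1 were only weakly related to other features of the genes, while ratios that involve colon 2 rose somewhat with coding length. Across the 77 genes, Spearman's correlation of the colon 1 ratio with coding length was 0.11, with the GC percentage of the coding sequence 0.14 and with the number of near-identical copies of the coding end elsewhere in the genome 0.02. For colon 2 these were 0.32, 0.21 and 0.08, and for the ratio of colon 2 to colon 1 they were 0.36, 0.17 and 0.07. Of the 77 genes, 7 had no copy at 97% identity over 90% of their last 150 coding bases, 39 had 1 to 4 and 31 had 5 or more. Medians of the colon 1 ratio were -0.63, -0.76 and -0.67 in that order. Reads of such ends can map to several places, and how they were counted is not given in the sources used here, so single-gene levels are uncertain for genes with copies.

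The colon libraries, which share the same spleen library in their ratios, differed from each other by at least 1.5-fold for 3 of 77 structural genes, Rpl26, Rpl37 and Rpl27, against 27.3% of all genes. All 3 belong to the large subunit and were lower in colon 2 (11.2% of all genes). At 2-fold this count was 1 of 77, Rpl26 (10.2% of all genes). Rpl26, a rim gene whose protein also binds the messenger RNA of p53 (chromosome 11, 68901583 to 68906989, plus strand), stood at 175.96, 101.3 and 2.30 CPM, the last from 9 UMIs in the whole colon 2 library. Against spleen its log2 ratio was -0.80 in colon 1 (-1.12 to -0.47), close to the summed ratio, and -6.26 in colon 2 (-7.41 to -5.31). Its log2 ratio of colon 2 to colon 1 was -5.46 (-6.62 to -4.49), the lowest among genes with UMIs in both colon libraries.

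Rpl37 (chromosome 15, 5116645 to 5119140, plus strand) stood at 2596, 1547 and 942.4 CPM, with a log2 ratio of colon 2 to colon 1 of -0.72 (-0.79 to -0.64). Rpl27 (chromosome 11, 101442298 to 101445529, plus strand) stood at 2536, 1968 and 1296 CPM, with -0.60 (-0.67 to -0.53). Over the 77 genes the median of this ratio was -0.11, and without Rpl26 its SD was 0.22. Colon 2 had fewer reads per UMI and an unclear place among the replicates, and the part of either in these differences was not tested. It is not given in the sources used here whether colon 2 was counted with the same annotation, and the same rule for reads with several places, as the other libraries. The colon 2 values of Rpl26, and of the look-alikes Rps15a-ps4, Rpl10l and Rpl36al below, are uncertain for this reason.

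The 12 look-alikes were less uniform, and 5 of them were past 1.5-fold lower in both colon libraries (13.3% of all genes). The SD of their log2 ratios was 0.65 in colon 1 and, without Rpl36al at 0 UMIs, 1.16 in colon 2. Counting error alone gives 0.32 and 0.24, more than for the structural genes, since several look-alikes have few UMIs. All 5 that were past it are pseudogenes or a retrogene copied from ribosomal protein genes. Rps15a-ps6, a processed pseudogene (chromosome 11, 6172644 to 6173036, minus strand), stood at 2979, 1674.8 and 1203 CPM, with log2 ratios of -0.83 and -1.31. Rps15a itself stood at 4207, 2316 and 1901 CPM, with -0.86 and -1.15. Reads of this pseudogene and of Rps15a cannot be told apart where the sequences match, and the same holds for Rpl31-ps12 (1562, 841.8 and 698.8 CPM) and Rpl31 (2334, 1214 and 1046 CPM). Rps19-ps3 had log2 ratios of -0.76 in colon 1 and -0.996 in colon 2.

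Rps15a-ps4 and Rpl10l, the remaining 2 of the 5, were far lower in colon 2. Rps15a-ps4 stood at 1962, 1083.6 and 423.6 CPM and Rpl10l at 143.3, 82.2 and 17.1 CPM, with log2 ratios of colon 2 to colon 1 of -1.36 (-1.46 to -1.25) and -2.26 (-2.73 to -1.81). Rpl36al had 12, 24 and 0 UMIs. Rps4l, a transcribed pseudogene, was the other one past 1.5-fold between the colon libraries, with 9, 8 and 51 UMIs and a ratio of 1.03 (-0.06 to 2.32) whose interval includes 0.

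Paralogs with a sequence of their own had fewer UMIs than their namesakes. Rpl22l1, which can take the place of Rpl22 in the ribosome, stood at 411.6, 280 and 293.1 CPM, with log2 ratios of -0.56 (-0.76 to -0.36) and -0.49 (-0.64 to -0.34). The ratio of Rpl22 in colon 1, -0.51, lies within the first interval. Rps27l, a p53-induced relative of Rps27 (chromosome 9, 66946086 to 66949516, plus strand), stood at 160.8, 255.3 and 192.3 CPM. It was higher in colon than in spleen, at 0.67 (0.41 to 0.93) and 0.26 (0.03 to 0.49), while Rps27 was lower at -0.80 and -1.14. With totals that leave the members out, the ratios of Rps27l were 0.46 and 0.03. Rpl7l1 stood at 192.7, 157.2 and 171.8 CPM. Rpl39l had 47, 33 and 70 UMIs, and Rps19bp1, a binding partner of Rps19, had 13, 17 and 53 UMIs, too few to place their ratios.

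The lower share was spread over the cells. The median cell held 28.1% of its UMIs in the 89 members in spleen, 16.9% in colon 1 and 15.5% in colon 2. With every cell reduced at random to 1000 UMIs (4, 9 and 28 cells had fewer and were dropped), the medians were 28.4%, 16.95% and 15.4%. The SD over cells was 7.32, 4.59 and 4.25 percentage points, where counting error gives 1.06, 0.91 and 0.84. Of the colon cells, 2.75% in colon 1 and 1.19% in colon 2 stood at or above the spleen median, and 4.86% of spleen cells at or below the colon 1 median. Within classes of cells by UMI total, the spleen medians ran from 26.1% to 29.6%, those of colon 1 from 16.6% to 18.1% and those of colon 2 from 14.8% to 17.1%. Small subunit genes held 46.5%, 43.4% and 44.2% of the structural UMIs of the median cell.

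**Figure D4:**
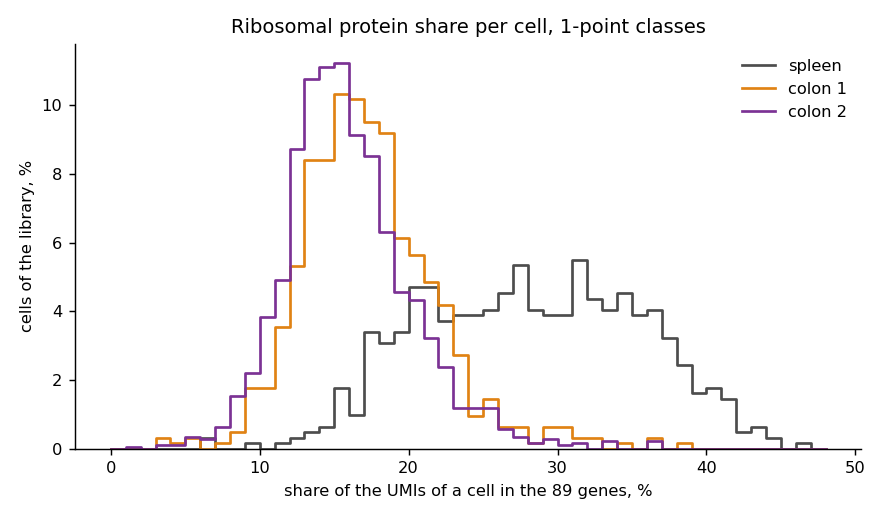
Share of each cell's UMIs in the 89 members (x axis, percent) against the percentage of the cells of a library (y axis) in classes of 1 percentage point, for spleen, colon 1 and colon 2. The colon libraries peak near their medians of 16.9% and 15.5%, and the spleen distribution is wider, around 28.1%, and overlaps them.

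Genes of the same machinery with other names stood closer to their spleen levels. Fau encodes a fusion of a ubiquitin-like protein with a ribosomal protein, and Gnb2l1 encodes the ribosome-bound scaffold Rack1. Of the 3 such genes tested, 0 were past 1.5-fold lower or higher (13.3% and 17.4% of all genes), and 3 genes are too few to set against those shares. Fau stood at 3420, 2598 and 2447 CPM in spleen, colon 1 and colon 2. Gnb2l1 stood at 3064, 2265 and 2406 CPM. The median log2 ratio of the 3 was -0.40 and -0.35, above the quartiles of the structural genes in both colon libraries.

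Tested were 21 other genes with TOP messenger RNAs or for translation factors. Of these, 3 were past 1.5-fold lower and 0 higher (13.3% and 17.4% of all genes). Below spleen in both colon libraries stood 19 of the 21 (38.8% of all genes). Either colon library alone gave 5 lower, with no share of all genes given for 1 library. Totals without the members gave 7 lower (20.9% of all genes). The median log2 ratio of the 21 was -0.35 and -0.42. Eef1b2, a subunit of the elongation factor exchange complex, stood at 1726, 1088.4 and 1004 CPM, and its partner Eef1g at 695.1, 425.3 and 428.2 CPM. Eif3f, of initiation factor 3, stood at 421.99, 224.2 and 271.7 CPM. Naca, of the nascent polypeptide-associated complex, stood at 968.99, 673.5 and 580.9 CPM and missed the threshold in colon 1.

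Genes of ribosome assembly were centred on 0, with medians of 0.03 and -0.04, and 0 of 27 were lower and 2 higher past 1.5-fold in both (13.3% and 17.4% of all genes). The 2 were Bop1 (18.3, 32.7 and 38.04 CPM) and Brix1 (12.7, 19.2 and 21.4 CPM), both at low levels and named after their values were seen. Colon 1 alone gave 1 lower and 4 higher, colon 2 alone 3 and 4, and totals without the members 4 and 1. Nop56, a core protein of small nucleolar particles, stood at 65.3, 92.6 and 101.6 CPM. Dkc1 and Nhp2, of the particles that make pseudouridine, had log2 ratios of -0.58 and -0.78 and of -0.50 and -0.77. Polr1c, shared by RNA polymerases I and III, had 0.80 and 0.21.

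Of 16 tested genes around mTOR and TOP regulation, 1 was lower and 4 higher past 1.5-fold (13.3% and 17.4% of all genes). Lower were 5 in colon 1 alone and 3 in colon 2 alone, with no share of all genes given for 1 library. With totals without the members 3 were lower (20.9% of all genes). Rheb, the GTPase that activates mTOR complex 1, stood at 42.995, 158.8 and 141.7 CPM, 3.69 and 3.30 times higher in colon. Ddit4, an inhibitor of the same complex, stood at 173.6, 597.6 and 523.2 CPM, 3.44 and 3.01 times higher. Tsc1 and Eif4ebp1 were the other 2 (log2 ratios of 0.87 and 0.97, and of 1.46 and 0.94). Myc, a transcription factor that drives ribosomal genes, stood at 117.04, 42.3 and 71.2 CPM, 2.77 and 1.64 times lower. Its partner Max stood at 121.02, 37.5 and 92.4 CPM, and only colon 1 was past the threshold.

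The ribosome of mitochondria, built from a separate set of nuclear genes, showed a wide spread. Of 76 tested genes 11 were past 1.5-fold lower and 2 higher, with medians of -0.19 and -0.32. Colon 2 alone gave 21 lower and 8 higher, and totals without the members 23 lower and 1 higher. Mrpl24 stood at 76.4, 39.9 and 42.9 CPM, Mrpl57 at 78.03, 49.5 and 37.5 CPM and Mrpl30 at 85.99, 59.05 and 44.7 CPM. Mrps6 went the other way, at 102.7, 185.1 and 155.2 CPM. With the main scaling, the 11 of 76 lower calls are near the share of all genes (13.3%). The 2 of 76 higher calls are below the share of all genes (17.4%).

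**Figure D5:**
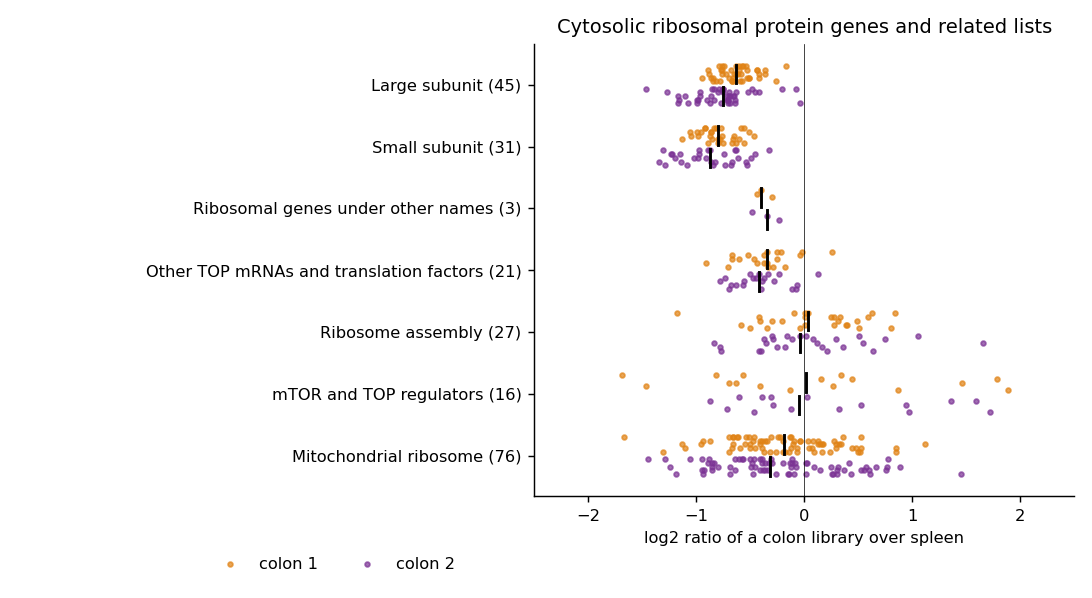
Log2 ratio of colon 1 and of colon 2 over spleen (x axis) for each gene of the large subunit (Rpl26 left out), the small subunit and 5 related lists, with the number of genes in brackets; black bars are medians over the genes drawn. The cytosolic ribosomal protein genes sit together, with structural medians of -0.68 and -0.80, the genes under other names and the TOP and translation factor genes between them and 0, and the assembly, mTOR and mitochondrial lists straddle 0.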

How the data were processed

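Single-cell RNA sequencing by inDrops was read for sorted spleen and colon Tregs. Per the labels' protocols, RNA was reverse transcribed with oligo-dT in droplets, amplified by in vitro transcription and read on a NextSeq500 instrument. TopHat2, SAMtools and mm10 appear in the submitters' processing notes, with no versions. For the annotation, UMI collapsing, strand and cell selection, the method is not given in the sources used here. In the deposited table, values are whole-number counts of UMIs per gene and cell, and 0 of its columns were left out. The deposited cell label table was not used. No doublet caller was run and no cell was removed; 1 cell of colon 2 held 2 or more markers of another cell type and was dropped in an alternative.

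Counts were summed per library and scaled to 1000000 UMIs (CPM) over all genes. Ratios of a colon library to spleen have exact conditional binomial intervals and shares exact Clopper-Pearson intervals, at 95%, for counting error only. Thresholds of size (1.5-fold, and 2-fold beside it, in both colon libraries) replace tests, since each tissue counts as 1 sample. Structural genes are those with a plain ribosomal protein symbol; Rps3a1, the table's name for Rps3a, was counted among them. Spreads, deviations from the summed structural ratio and differences between the colon libraries were taken over structural genes with at least 300 UMIs, which all 77 had. Gene positions are from GENCODE vM21, and copies of coding ends were searched with blastn 2.17.0. Python 3.11.15 and, for edgeR 4.0.16 TMM scaling, R 4.3.3 were used. Intervals and calls were tested on simulated counts with counting error only, which does not test them for the spread between cells or animals.

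The members and lists were chosen with earlier results of these data known. Genes named with values are the 4 structural genes with the highest and the 4 with the lowest mean log2 ratio, the 3 highest and 3 lowest by mean CPM, genes that differ 1.5-fold from the summed ratio or between the colon libraries, a set list of stalk, 5S and other known genes with the paralogs and their namesakes, and up to 4 genes with at least 300 UMIs of each related list. Some genes that these rules select are not reported here. Others that are named complete a count of 5 or fewer or a contrast with a copy and were chosen after their values were seen. Markers of other types covered B, plasma, CD8 or NK, erythroid or platelet, granulocyte or mast, macrophage or dendritic, epithelial and stromal or endothelial cells. Alternatives covered other scalings, cell filters, UMI minimums and thresholds, and each colon library alone.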

Additional observations from a re-analysis of the deposited data

How the results depend on the processing

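The lower level of the members kept its direction under every scaling, cell filter and library choice tried. The mean log2 ratio of their summed share was -0.75, -0.72 with edgeR TMM and -0.97 with totals without the members. The count of members 1.5-fold lower stayed between 51 and 78 over these alternatives and each colon library alone, and was 3 at 2-fold. Members 1.5-fold higher were 0, 1 in cells with at least 1000 UMIs (Rps19bp1, from 83 UMIs in all) and 1 to 2 with 1 colon library left out. The large-minus-small difference was 0.13 as the mean of both colon libraries and 0.17 from means over cells. The SD in colon 2 was 0.68 and, among genes with at least 1000 UMIs, 0.28, since that leaves out Rpl26. Deviations from the summed ratio were 0, 0 to 5 with 1 colon library left out and 3 at 1.3-fold. Structural genes that differed between the colon libraries were 3, 5 with median of ratios scaling (Rps4x and Rplp1 were added) and 1 at 2-fold.

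With totals without the members, the lower counts were 1 for the genes under other names, 7 for TOP and translation factors, 4 for assembly, 3 for mTOR and 23 for the mitochondrial ribosome, and the higher counts 1 for assembly and 1 for the mitochondrial ribosome. Means over cells gave 1 lower and 1 higher for assembly and 4 higher for the mitochondrial ribosome; cells with at least 1000 UMIs gave 1 lower for assembly, and median of ratios 1 higher for the mitochondrial ribosome. With 1 colon library left out, the threshold is asked for in 1 library only, and no share of all genes is given for that. Lower counts were then 5 for TOP and translation factors in either case, 1 to 3 for assembly and 3 to 5 for mTOR. For the mitochondrial ribosome they were 16 to 21. Higher counts were 4 for assembly and 3 to 8 for the mitochondrial ribosome. For 53 single genes, 49 of all values under these alternatives (11.5%) moved by more than the SD of the colon libraries, 35 of them with totals without the members, and none turned past 1.5-fold in the opposite direction. Under the cell filters and with cells reduced to 1000 UMIs, median shares per cell stayed within the interval of the reported median. That interval was 27.47% to 29.15% in spleen, 16.55% to 17.26% in colon 1 and 15.27% to 15.66% in colon 2.

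No paired analysis was possible because spleen has 1 library and the labels pair no libraries. Depth limits look-alikes with few UMIs: Rps4l, Rps19bp1, Rpl36al and Rpl39l could not be placed. The spread between animals is unknown, so no difference here has been compared with it, and tissue, dissociation and library cannot be told apart.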

Other observations

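The ribosomal protein share of a cell differed with some of 11 genes of T cell state, which were picked after their values were seen and get no test. In spleen, 25.1% of cells held a UMI of S100a4, a calcium-binding protein of effector and memory T cells. Their median share in the 89 members was 21.02%, and that of the cells without it 30.9%. Cells with Icos, a costimulatory receptor of activated T cells, stood at 23.04% and cells without it at 29.8%. Cells with Ccr7, a homing receptor of resting T cells, stood at 32.3%, against 27.3% without. In the colon the same splits were narrower for S100a4, at 16.5% and 18.1% in colon 1 and 15.3% and 16.5% in colon 2. Colon cells with Ccr7 had 21.4% and 18.9%, against 16.6% and 15.2% without. Splits by other genes of the 11 differed in size and direction between genes and libraries. Spleen cells with and without Il1rl1, a cytokine receptor of tissue Tregs, both had 28.1%. Colon cells with Gata3, a transcription factor, stood at 17.01% and 16.01%, against 16.7% and 15.1% without. Spleen cells went the other way for Gata3, at 26.3% with it and 29.2% without. For Klrg1, a receptor of effector cells, spleen cells had 20.99% with it and 29.2% without, a wide split like that of S100a4. In the colon the Klrg1 values were 16.8% with and 17.02% without in colon 1, and 15.6% and 15.3% in colon 2. Spleen cells with S100a4 held a median of 2018 UMIs and those without 1797, and the part of depth in these splits was not tested.

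The structural genes took 21.7% of the UMIs of spleen cells with S100a4 and 29.9% of those without, a log2 ratio of -0.46, with -0.43 for the large and -0.50 for the small subunit. Rpl41, among the genes lowered least between tissues, had -0.14 (-0.22 to -0.05) here, and Rpl7a, which was also lowered little between tissues, had -0.41 (-0.55 to -0.27). Both contrasts use the same spleen cells, so they are not independent.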
